A study of Rattus norvegicus with 12 samples.

Results

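Rat sciatic nerve stumps treated with the CC4:4 conduit were compared with control stumps across all genes that passed a low-count filter, which were 15712 of the 30562 genes in the table. The comparison used 6 of the 12 samples of the series, 3 in the group labelled Control and 3 in the group labelled CC4:4. The conduits are truncated cones placed at nerve stumps, and 4:2 and 4:4 are the names of their gradients in the series' text. The series asked how such conduits act on pain after nerve injury and whether YAP takes part. The other groups were the CC4:2 conduit and VP4:2, a 4:2 conduit loaded with verteporfin, a drug that disrupts the binding of YAP to its partner TEAD. They entered the fit that estimates the spread between replicates, and CC4:2 is set against CC4:4 at the end. The sources used here do not give the treatment of the control stumps, the rats' strain, sex and age, the time after surgery or what the numbers in 4:2 and 4:4 measure. Separate animals are not stated for the 3 stumps of a group either, so a p-value reflects how far these samples varied, which could be technical variation.

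A severed nerve that cannot reach its target grows a tangle of sprouting axons, Schwann cells, connective tissue and small vessels, known as a neuroma when it enlarges. Schwann cells wrap axons in myelin in the intact nerve and turn into repair cells after injury, while macrophages clear debris and fibroblasts lay down collagen. YAP and TAZ are transcriptional coactivators that respond to stiffness and stretch. They are held in the cytoplasm when LATS kinases of the Hippo pathway phosphorylate them, and in the nucleus they act through TEAD factors on genes such as Ccn1 and Ccn2.

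No gene passed edgeR's test between CC4:4 and Control, which was the main one. In that quasi-likelihood test, 0 of 15712 genes (0.0%) had a Benjamini-Hochberg adjusted p under 0.05, and the smallest adjusted p was 0.93. Before adjustment, 831 genes (5.29%) had a p under 0.05, of which 272 (1.73%) were higher and 559 (3.56%) lower in CC4:4. That total share is close to the threshold of 0.05 itself, which genes without a difference would also give. All 3 CC4:4 samples lay above all 3 controls for 491 genes (3.12%) and below them for 675 genes (4.3%). DESeq2 called 10 genes (0.0636%), 5 in each direction (0.0318%), and 7 of them are described next: Tll1, Wfdc1, Cfi and Bche were called higher and Ptgs2, Acvr1b and Vps9d1 lower.

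The estimates were small for most genes and wide for many. On the log2 scale, where 1 is a 2-fold difference, the median size of the difference was 0.174 and the median difference was -0.011. The 95% interval of the difference stayed within 2-fold in either direction for 10216 genes (65.0%). For the other 5496 (35.0%) it reached beyond 2-fold, and for 1871 beyond 4-fold, so a difference of that size lay inside the interval of those genes.

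Library totals of the 12 samples ran from 13763106 to 18632301 counts, and 17565 to 17988 genes had at least 1 count. The myelin genes that define nerve were present in all 6 stumps compared. Mbp, myelin basic protein, was at 65.6, 622 and 409 CPM (TMM-scaled count rates) in Control replicates 1 to 3 and at 481, 429 and 319 CPM in CC4:4 replicates 1 to 3. Control replicate 1 was thus far below the other 5 samples for this gene.

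Control replicate 1 stood apart from the other controls over all genes. The root mean square log2 difference was 1.11 between Control replicates 1 and 2 and 1.19 between replicates 1 and 3, against 0.731 between replicates 2 and 3. Pairs of CC4:4 samples differed by 0.671, 0.664 and 0.776. Control replicate 1 was nearer to each CC4:4 sample, at 0.925, 0.98 and 0.774, than to either of the other controls. Genes were counted where 1 control lay at least 4-fold above or below both others, which were within 2-fold of each other. These were 443 for Control replicate 1, 70 for replicate 2 and 85 for replicate 3. Counted in the same way, the CC4:4 replicates had 48, 84 and 104. Control replicate 1 also held 57200 counts of the ribosomal precursor Rn45s where the other 5 held 713 to 7760. The part of these features in the results was not tested.

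**Figure D1:**
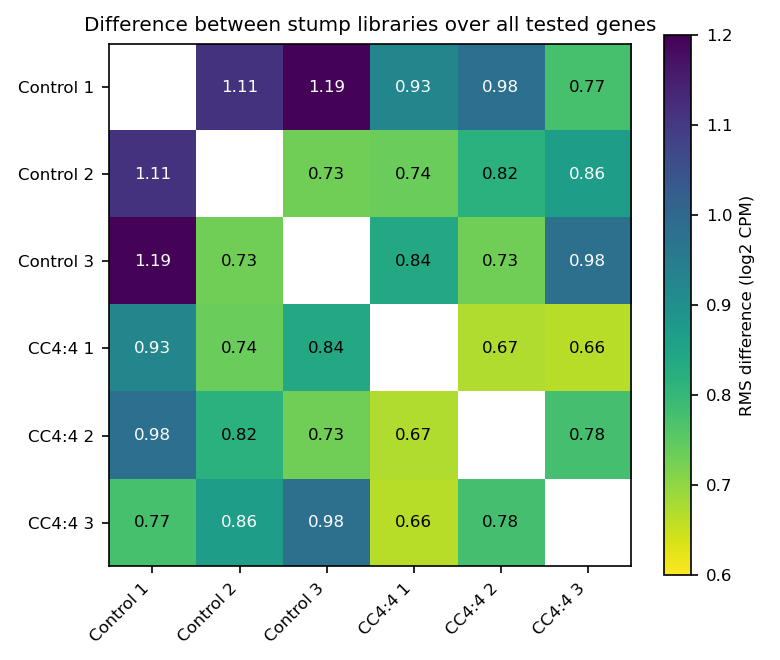
Root mean square difference in log2 CPM between each pair of the 6 stump libraries over 15712 genes, with darker squares for larger differences. The row of Control replicate 1 holds the largest values, up to 1.19, and the 3 squares among CC4:4 samples lie between 0.664 and 0.776.

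Leading genes were those of smallest p among genes whose groups did not overlap, so the lack of overlap was set by the choice. Those higher in CC4:4 included Tll1, Wfdc1, Fbn2, Cfi and Bche. Tll1, a tolloid-like protease that trims procollagen, was at 15.2, 17.7 and 14.5 CPM in the controls and at 24.3, 27.5 and 32.8 CPM in CC4:4. Every CC4:4 sample lay above every control, and the log2 fold change was 0.83 ± 0.16 (SE), with a 95% interval from 0.49 to 1.17. Wfdc1, a secreted protein with a whey acidic protein domain, was at 18.5, 17.2 and 11.9 CPM in the controls and at 27.8, 31.0 and 31.5 CPM in CC4:4, a log2 fold change of 0.92 ± 0.19. Fbn2, a fibrillin of elastic microfibrils, was at 16.8, 9.99 and 8.08 CPM against 25.9, 26.2 and 45.1 CPM, a log2 fold change of 1.47 ± 0.41. The groups did not overlap for either gene. In edgeR the adjusted p was 0.93 for these 3 genes and for all other leading genes given next. In DESeq2 it was 0.026 for Tll1, 0.03 for Wfdc1 and 0.15 for Fbn2.

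Cfi, complement factor I, which cleaves C3b and C4b and so limits complement, was at 30.0, 19.4 and 21.2 CPM in the controls and at 56.4, 52.2 and 35.2 CPM in CC4:4. Its log2 fold change was 1.02 ± 0.21. Bche, butyrylcholinesterase, was low in both groups, at 0.62, 0.39 and 1.21 CPM against 5.22, 1.56 and 3.69 CPM, with a log2 fold change of 2.24 ± 0.51. DESeq2 gave an adjusted p of 0.03 for both genes. Ces1d, a carboxylesterase that hydrolyses stored lipid in adipocytes, was at 9.67, 16.7 and 13.2 CPM against 125, 21.3 and 44.8 CPM. The CC4:4 samples did not overlap the controls for these 3 genes, but they differed among themselves, most of all for Ces1d, whose value in CC4:4 replicate 1 exceeded the other 5 samples together. The same rule also named Prickle1 (a planar polarity protein), Depp1 and Trim32 (a ubiquitin ligase), with log2 fold changes of 0.62, 1.03 and 0.37.

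The leading genes that were lower in CC4:4, also chosen among genes without overlap, included Ptgs2, Acvr1b, Vps9d1, Mertk and Kmt5c. Ptgs2, the inducible cyclooxygenase that starts prostaglandin synthesis, was at 38.1, 31.1 and 78.8 CPM in the controls and at 17.8, 19.0 and 9.44 CPM in CC4:4. The log2 fold change was -1.68 ± 0.36, with a 95% interval from -2.46 to -0.89. Acvr1b, a type I receptor for activins, was at 63.8, 74.7 and 73.7 CPM against 49.1, 52.0 and 44.4 CPM, a log2 fold change of -0.55 ± 0.11. Vps9d1 was at 17.2, 21.9 and 19.5 CPM against 11.1, 10.98 and 12.4 CPM, a log2 fold change of -0.76 ± 0.14. No CC4:4 sample reached the lowest control for any of these genes, and DESeq2 gave adjusted p values of 0.029 for Ptgs2, 0.03 for Acvr1b and 0.026 for Vps9d1. Mertk, a receptor with which macrophages take up dying cells and myelin, was at 56.4, 60.8 and 58.2 CPM against 40.1, 34.7 and 47.6 CPM. Kmt5c, a histone H4 lysine methyltransferase, was at 9.73, 19.8 and 19.4 CPM against 6.81, 8.06 and 7.93 CPM. The other 5 of the 10 were Tpcn2, Fam219a, Kcne2, Ppm1h and Lrrc47, with log2 fold changes between -1.79 and -0.59.

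**Figure D2:**
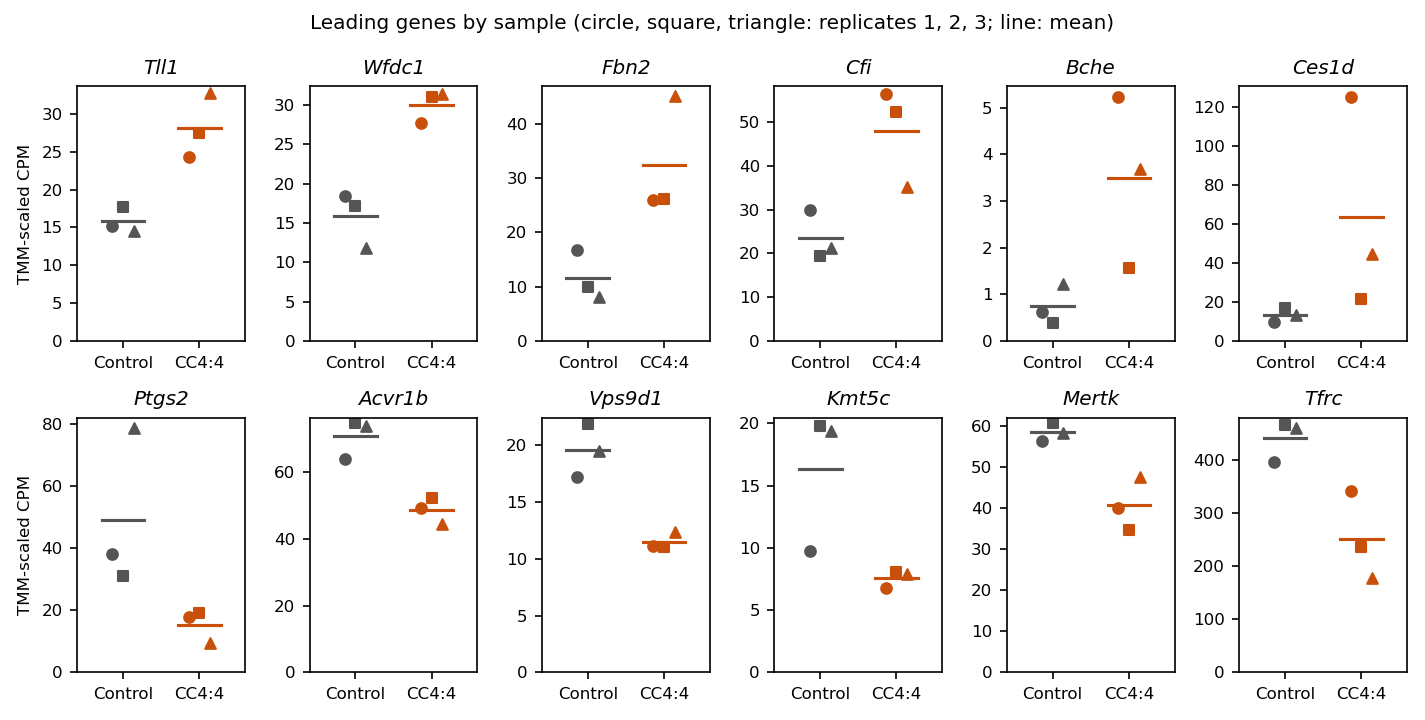
TMM-scaled CPM of 12 genes in the 3 Control and 3 CC4:4 stumps, with 1 panel a gene, each axis starting at 0 and lines at the group means. In every panel the groups do not overlap, which was a condition of the choice for every gene shown but Tfrc. For Tll1 the controls lie between 14.5 and 17.7 CPM and the CC4:4 samples between 24.3 and 32.8 CPM. None of the 12 genes passed the adjusted test in edgeR, while DESeq2 called 7 of them.

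The largest estimate among the 10 smallest p belonged to RGD1561722 and LOC100911032, which held identical counts in every library and so cannot be told apart. Their counts were 0, 27 and 21 in the controls, 1834, 2854 and 742 in CC4:4, 0 in each CC4:2 library and 7, 0 and 0 in VP4:2. The log2 fold change was 6.60 ± 1.06. What these loci encode was not taken up here, since the RefSeq table held neither symbol.

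**Figure D3:**
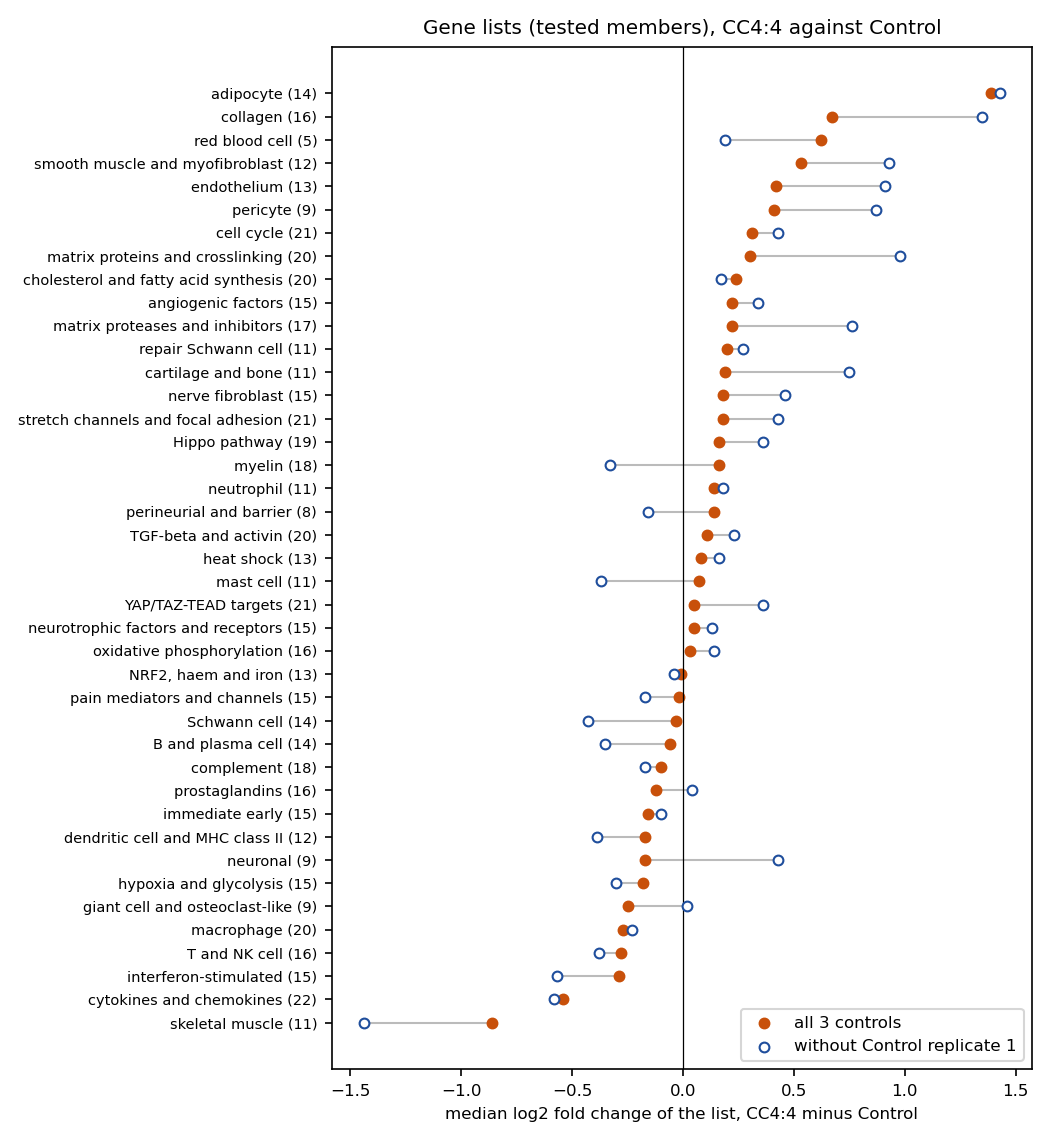
Median log2 fold change, CC4:4 minus Control, of the tested members of 41 gene lists (number of members in brackets), with filled points for all 3 controls and open points without Control replicate 1. With all controls the medians run from -0.86 for skeletal muscle to 1.39 for adipocyte genes, and without that library the median of myelin genes moves from 0.16 to -0.33.

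The gene lists are read against the whole table, in which 3.12% of genes lay above all controls and 4.3% below. Of 18 myelin genes, 0 lay outside the range of the controls, and their median log2 fold change was 0.16, with members from -0.51 to 0.56. The median was -0.33 without Control replicate 1. The list index, the mean log2 CPM of its members in a sample, was 2.95, 6.23 and 5.5 in the controls and 5.72, 5.52 and 5.32 in CC4:4. The CC4:4 samples sat close together, inside the range that the controls spanned. The 14 Schwann cell genes had a median of -0.03 (-0.43 without Control replicate 1), and their index was 2.72, 5.39 and 4.29 in the controls against 4.95, 4.02 and 4.27 in CC4:4. S100b, a calcium-binding protein used to mark Schwann cells, was at 14.1, 55.4 and 42.7 CPM in the controls and at 120, 64.1 and 43.6 CPM in CC4:4, with overlap. In whole tissue, fewer cells of a type and less RNA per cell cannot be told apart. The 11 repair Schwann cell genes had a median of 0.20, the 15 neurotrophic factor and receptor genes 0.05, and the 8 perineurial and barrier genes 0.14. These medians were 0.27, 0.13 and -0.16 without Control replicate 1.

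Fat cell genes had the highest median of any list. All 14 adipocyte genes had an estimate above 0, with a median of 1.39, and 8 of the 14 had an unadjusted p under 0.05. Above all controls lay 4, which were Adipoq, Cidec, Retn and the hormone gene Lep. Adipoq, the hormone adiponectin, was at 21.7, 24.4 and 40.3 CPM in the controls and at 311, 44.0 and 87.4 CPM in CC4:4, a log2 fold change of 2.36 ± 0.72. Cidec, a lipid droplet protein, was at 7.65, 7.96 and 6.78 CPM against 70.5, 12.7 and 17.2 CPM, and Retn, the hormone resistin, at 3.77, 2.97 and 2.18 CPM against 26.8, 4.20 and 14.7 CPM. For all 3 genes CC4:4 replicate 1 was the highest sample and CC4:4 replicate 2 the lowest of its group. The adipocyte index was 3.96, 4.12 and 4.21 in the controls and 6.38, 4.3 and 5.04 in CC4:4. Ces1d moved with this list, and how much fat tissue each stump held was not measured.

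Enzymes of cholesterol and fatty acid synthesis also had estimates above 0 in all 20 tested members, with a median of 0.24 and a range from 0.05 to 1.21. In 8 of the 20 every CC4:4 sample lay above every control, but 1 had an unadjusted p under 0.05. That gene was Sqle, squalene epoxidase, at 13.2, 11.1 and 10.7 CPM in the controls and 13.7, 17.8 and 20.5 CPM in CC4:4. Hmgcs1, which makes the precursor of mevalonate, was at 36.3, 48.8 and 46.0 CPM against 59.6, 57.1 and 61.6 CPM, a log2 fold change of 0.44 ± 0.20. Scd, a desaturase of fatty acids that adipocytes and myelinating cells both express, was at 65.6, 107 and 125 CPM against 303, 174 and 213 CPM. The list index was 4.62, 4.95 and 4.91 in the controls and 5.21, 5.11 and 5.16 in CC4:4. Among the 41 lists, the index of every CC4:4 sample lay above every control in 2, this one and the adipocyte list, and below every control in 0. In the adipocyte list the nearest values were 4.3 in CC4:4 and 4.21 in Control. With 3 samples against 3, an exact permutation test can give no p below 0.1. Among 41 lists such a separation can therefore arise without a difference between the groups.

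Most immune lists had a median below 0. All 20 macrophage genes had an estimate below 0, with a median of -0.27 and a range from -0.85 to -0.04. Of these, 1 gene, Mertk, lay below all controls. Adgre1, the macrophage surface receptor F4/80, was at 307, 661 and 303 CPM in the controls and at 148, 196 and 362 CPM in CC4:4, with overlap and a log2 fold change of -0.85 ± 0.36. The macrophage index was 8.05, 7.79 and 7.93 in the controls and 7.62, 7.41 and 7.83 in CC4:4, where replicate 3 fell among the controls.

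Of 22 cytokine and chemokine genes, 18 had an estimate below 0, and the median was -0.54. Below all controls lay 3 (Il1a, Tnf and Lif), and 6 had an unadjusted p under 0.05, all lower. Il1a, the alarm cytokine interleukin 1 alpha, was at 8.15, 8.43 and 18.8 CPM in the controls and at 3.52, 6.51 and 3.56 CPM in CC4:4, a log2 fold change of -1.38 ± 0.52. Il6 was at 23.2, 7.11 and 14.3 CPM against 3.40, 5.08 and 7.93 CPM, a log2 fold change of -1.44 ± 0.47. The highest CC4:4 value for Il6 lay above the lowest control. Il10, an anti-inflammatory cytokine, was at 28.5, 4.37 and 8.64 CPM against 5.57, 3.86 and 3.69 CPM, with the highest value in Control replicate 1. Its log2 fold change was -1.66 ± 0.59 with that library and -0.57 without it. The list index was 5.16, 4.86 and 5.61 in the controls and 4.7, 5.06 and 4.44 in CC4:4, with overlap. The median of the list differed by sequencer. It was -0.04 with the samples read on NovaSeq X Plus alone, which were replicates 1 and 2. In the DNBSEQ-T7 pair, replicate 3 of each group and so 1 sample against 1, it was -1.11.

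The indices of the other immune lists overlapped between the groups. The 14 B and plasma cell genes had a median of -0.06 (-0.35 without Control replicate 1) and an index of 4.6, 6.75 and 6.78 in the controls and 6.1, 7.14 and 5.48 in CC4:4. Sdc1, a proteoglycan that marks plasma cells, was the member that lay below all controls, at 497, 415 and 447 CPM against 365, 352 and 335 CPM. Cr2, the complement receptor of B cells, was at 1.41, 13.7 and 9.05 CPM against 14.8, 98.9 and 1.85 CPM. The medians of the 16 T and NK cell genes, 12 dendritic cell and MHC class II genes, 11 neutrophil genes and 11 mast cell genes were -0.28, -0.17, 0.14 and 0.07, and without Control replicate 1 they were -0.38, -0.39, 0.18 and -0.37. Of the 18 complement genes, Cfi lay above all controls. C3, the central complement protein, was at 262, 1572 and 973 CPM in the controls and at 292, 538 and 302 CPM in CC4:4, so Control replicate 1 was below every CC4:4 sample while the other controls were above them. The log2 fold change of C3 was -1.31 ± 0.52.

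Iron and oxidant handling genes included 3 of 13 below all controls, which were Tfrc, Srxn1 and Fth1. Tfrc, the receptor that imports transferrin-bound iron, was at 396, 466 and 461 CPM in the controls and at 342, 236 and 178 CPM in CC4:4, a log2 fold change of -0.81 ± 0.28. Srxn1, an NRF2 target that repairs peroxiredoxins, was at 5.62, 4.29 and 4.85 CPM against 2.70, 2.58 and 3.35 CPM. The list as a whole had a median of -0.01 (-0.04 without Control replicate 1), with 6 of 13 estimates above 0.

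**Figure D4:**
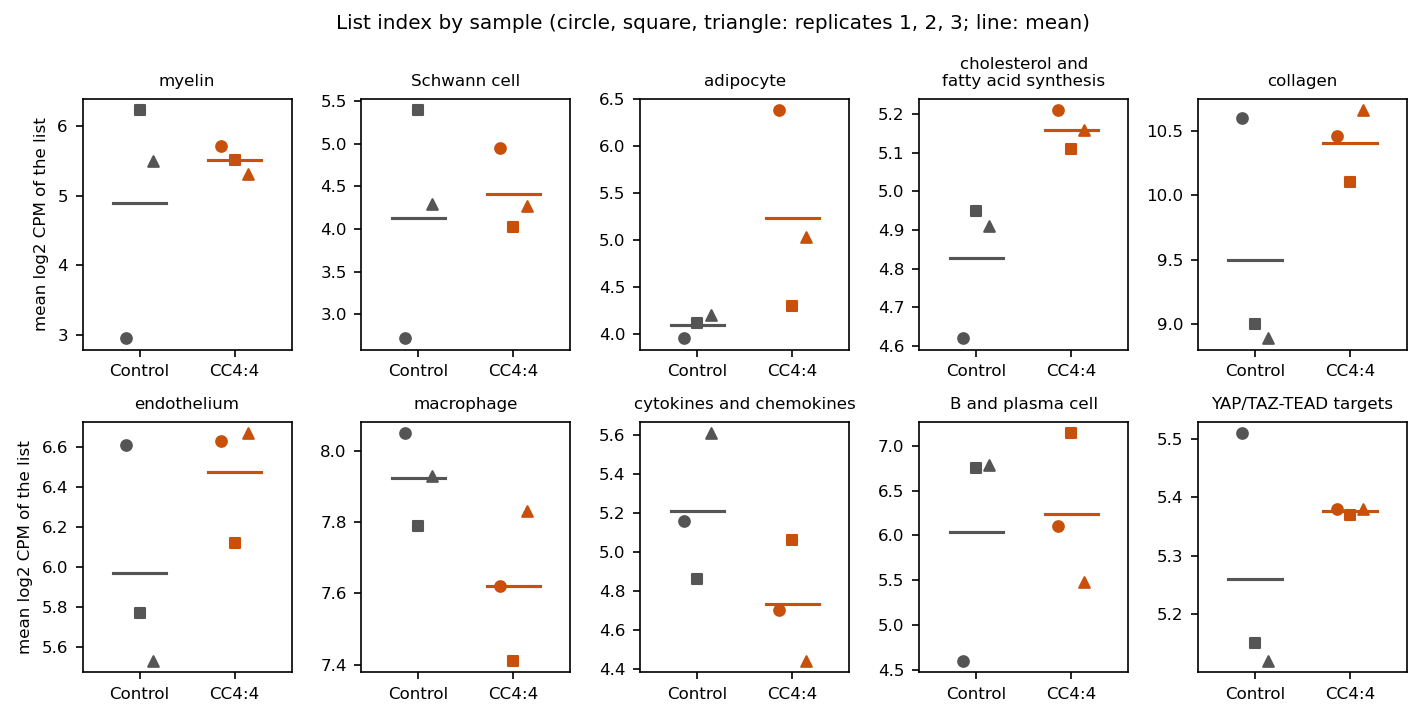
Mean log2 CPM of the members of 10 gene lists in each stump, with circles, squares and triangles for replicates 1, 2 and 3, lines at the group means and a separate axis range in each panel. Control replicate 1 is lowest of the 6 for myelin (2.95) and Schwann cell genes (2.72), while the CC4:4 samples lie above all controls for the adipocyte list and the cholesterol and fatty acid list.

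Most matrix and vessel genes had estimates above 0 but overlapped between the groups, with high values in Control replicate 1. All 16 collagen genes had an estimate above 0, with a median of 0.67 (1.35 without Control replicate 1), and 0 of 16 lay outside the controls. Col1a1, the main chain of fibrillar collagen type I, was at 29430, 6121 and 6442 CPM in the controls and at 24390, 23370 and 33140 CPM in CC4:4, a log2 fold change of 0.95 ± 0.60. Its value in Control replicate 1 lay within the CC4:4 range, and the other controls lay below it. Col4a1, a basement membrane collagen, showed the same order less sharply, at 1181, 576 and 528 CPM against 1746, 887 and 1424 CPM. The collagen index was 10.6, 9 and 8.89 in the controls and 10.46, 10.1 and 10.66 in CC4:4.

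Fmod, fibromodulin, a small proteoglycan that binds collagen fibrils, differed from the collagens in that all controls were alike. It was at 69.7, 68.4 and 63.5 CPM in the controls and at 82.6, 170 and 166 CPM in CC4:4, a log2 fold change of 1.06 ± 0.34, or 0.0094 as an unadjusted p in edgeR. It was the member of the 20 matrix protein and crosslinking genes that lay above all controls, and the median of that list was 0.30. The medians were 0.22 for 17 matrix proteases and inhibitors, 0.18 for 15 nerve fibroblast genes and 0.19 for 11 cartilage and bone genes. With Control replicate 1 left out, the median was 0.98 for the matrix protein list, 0.76 for the proteases and inhibitors, 0.46 for the nerve fibroblast genes and 0.75 for the cartilage and bone genes.

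All 13 endothelial genes had an estimate above 0, with a median of 0.42. Cdh5, the adhesion protein VE-cadherin, was at 259, 126 and 92.5 CPM in the controls and at 279, 175 and 322 CPM in CC4:4, with overlap. Vwf, the clotting factor stored in endothelium, lay above all controls in CC4:4 by a small margin, at 106, 142 and 123 CPM against 193, 142 and 173 CPM. Of 12 smooth muscle and myofibroblast genes, 10 had an estimate above 0 and 3 (Lmod1, Myh11 and Cnn1) lay above all controls. Lmod1, an actin nucleator of smooth muscle, was at 17.2, 13.7 and 10.4 CPM against 24.0, 22.9 and 23.0 CPM, and its log2 fold change was 0.76 ± 0.28. Myh11, smooth muscle myosin heavy chain, was at 166, 164 and 109 CPM against 291, 188 and 195 CPM. The smooth muscle list had a median of 0.53 and the 9 pericyte genes one of 0.41. In the fit without Control replicate 1 the medians were 0.91 for endothelium, 0.93 for smooth muscle and 0.87 for pericytes.

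Among the angiogenic factors, opposite estimates stood side by side. Angpt2, angiopoietin 2, which loosens vessels, was at 19.6, 22.1 and 16.4 CPM in the controls and at 28.5, 25.1 and 33.4 CPM in CC4:4, a log2 fold change of 0.58 ± 0.18. Vegfa, the growth factor of endothelium, was at 25.1, 58.5 and 59.9 CPM against 30.5, 27.6 and 20.5 CPM, a log2 fold change of -0.87 ± 0.33. For Vegfa, Control replicate 1 again lay among the CC4:4 samples. The 15 hypoxia and glycolysis genes, which hold Vegfa too, had a median of -0.18 (-0.30 without Control replicate 1) with 1 of 15 estimates above 0.

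Most genes of YAP signalling overlapped between the groups, and no listed one passed edgeR's test with all controls. Yap1 was at 143, 83.3 and 79.2 CPM in the controls and at 124, 109 and 135 CPM in CC4:4, a log2 fold change of 0.26 ± 0.20 with an adjusted p of 0.98 in edgeR's test. Wwtr1, which encodes TAZ, was at 111, 63.6 and 49.7 CPM against 102, 92.6 and 105 CPM, a log2 fold change of 0.42 ± 0.24. For both coactivators Control replicate 1 was the highest of the 6 samples and the other controls were the lowest. Both were called higher in the edgeR fit without Control replicate 1, described below. Of 19 Hippo pathway genes, 13 had an estimate above 0, 2 (Amotl2 and Vgll3) lay above all controls and 1 below. The gene below was Lats1, the kinase that inactivates YAP, at 51.7, 60.2 and 59.1 CPM against 44.5, 50.2 and 49.2 CPM, a log2 fold change of -0.25 ± 0.12. Vgll4, which competes with YAP for TEAD, was at 34.4, 26.6 and 21.8 CPM against 37.9, 34.1 and 34.7 CPM.

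Ccn1 and Ccn2 encode secreted matricellular proteins and are the most used readouts of YAP and TEAD. TEAD factors bind the letters GGAATG, or CATTCC on the other strand. The stretch of 250 bases before the start of each gene is shown because it holds those letters, in capitals, 5′ to 3′ along the gene. The sequences are from RefSeq (build GRCr8), at chr2:237225690-237225939 on the minus strand for Ccn1 and chr1:22624615-22624864 on the minus strand for Ccn2.
Ccn1: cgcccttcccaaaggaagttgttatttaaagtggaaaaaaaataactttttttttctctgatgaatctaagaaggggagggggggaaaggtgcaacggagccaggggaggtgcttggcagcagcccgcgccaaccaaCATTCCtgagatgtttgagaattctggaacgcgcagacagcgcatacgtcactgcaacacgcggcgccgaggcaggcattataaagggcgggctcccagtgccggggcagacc
Ccn2: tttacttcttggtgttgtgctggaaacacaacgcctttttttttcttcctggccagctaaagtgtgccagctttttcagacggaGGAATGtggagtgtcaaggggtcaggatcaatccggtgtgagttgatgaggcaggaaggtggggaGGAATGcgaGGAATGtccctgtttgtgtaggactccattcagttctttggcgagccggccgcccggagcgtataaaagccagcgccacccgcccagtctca
Ccn2 held 3 matches and Ccn1 held 1. Either form occurred in 12.1% of 33469 promoter windows of this length, and 27 windows (0.08%) held 3 or more. The windows of Crim1 and Wwtr1 held 0 matches. These letters describe the windows and do not show binding in the stumps.

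The levels of Ccn1, Ccn2 and most other targets overlapped between the groups. Ccn1 was at 178, 56.0 and 87.4 CPM in the controls and at 77.9, 110 and 87.8 CPM in CC4:4, and its log2 fold change was -0.23 ± 0.53, with a 95% interval from -1.40 to 0.95. Ccn2, with the 3 matches, was at 339, 100 and 121 CPM against 176, 179 and 178 CPM, and its log2 fold change was -0.08 ± 0.46, with a 95% interval from -1.09 to 0.94. Both genes were highest in Control replicate 1. The 3 CC4:4 values of Ccn2 lay close together, above Control replicates 2 and 3. Ankrd1, a mechanically induced ankyrin repeat protein, was at 0.45, 2.97 and 17.4 CPM in the controls and at 1.17, 4.07 and 1.23 CPM in CC4:4. Crim1, a membrane protein that binds growth factors, was the target with the smallest p, at 33.6, 32.6 and 25.5 CPM against 62.3, 44.7 and 44.8 CPM, a log2 fold change of 0.73 ± 0.21. Of 21 YAP/TAZ-TEAD targets, 12 had an estimate above 0 and 2 (Crim1 and Amotl2) lay above all controls. The median of the targets was 0.05, and their index was 5.51, 5.15 and 5.12 in the controls and 5.38, 5.37 and 5.38 in CC4:4. Without Control replicate 1, Ccn1 and Ccn2 had estimates of 0.36 and 0.68, and the median of the targets was 0.36.

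Of 21 stretch channel and focal adhesion genes, 18 had an estimate above 0 and the median was 0.18 (0.43 without Control replicate 1). Vcl, vinculin, which ties integrins to actin, was at 130, 110 and 94.4 CPM in the controls and at 171, 124 and 169 CPM in CC4:4, a log2 fold change of 0.47 ± 0.18. Piezo2, the touch channel, was at 21.9, 27.2 and 14.8 CPM against 30.3, 23.5 and 33.0 CPM, also with overlap. Of 20 TGF-beta and activin genes, 1 lay outside the controls, the receptor Acvr1b.

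Genes that act in pain showed mixed estimates. Beside Ptgs2, Ptger1, a receptor for prostaglandin E, had an estimate below 0, at 16.4, 29.4 and 27.3 CPM in the controls and 17.3, 14.7 and 16.3 CPM in CC4:4. The 16 prostaglandin genes had a median of -0.12 (0.04 without Control replicate 1), and 2 (Ptgs2 and the receptor Ptger4) lay below all controls. Of 15 pain mediator and channel genes, 7 had an estimate above 0, 2 (Bdkrb2 and P2rx3) lay above all controls and the median was -0.02 (-0.17 without Control replicate 1). Bdkrb2, the bradykinin B2 receptor, was at 12.8, 7.42 and 12.6 CPM in the controls and at 15.4, 14.4 and 18.5 CPM in CC4:4. Calca, which encodes the pain peptide CGRP, was low in every stump, at 0.45, 1.25 and 1.45 CPM against 0.53, 0.27 and 0.68 CPM. The cell bodies of pain neurons lie in the dorsal root ganglia and not in the stump, and 5 of the 20 listed pain genes fell below the filter.

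Cell cycle genes had estimates above 0 in all 21 tested members, with a median of 0.31, and 0 of 21 lay outside the controls. Mcm5, a subunit of the replicative helicase, was at 22.4, 17.8 and 27.9 CPM in the controls and at 33.8, 47.2 and 24.7 CPM in CC4:4, a log2 fold change of 0.63 ± 0.27. The 16 oxidative phosphorylation genes were the most even list, with estimates from -0.09 to 0.13 and a median of 0.03 (0.14 without Control replicate 1). Medians of the remaining lists were 0.08 for 13 heat shock genes, -0.16 for 15 immediate early genes, -0.29 for 15 interferon-stimulated genes, -0.25 for 9 giant cell and osteoclast-like genes, -0.17 for 9 neuronal genes and 0.62 for 5 red blood cell genes. Leaving out Control replicate 1, they were 0.16, -0.10, -0.57, 0.02, 0.43 and 0.19 in the same order, so the giant cell and neuronal medians changed sign.

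Muscle transcripts varied far more between stumps than between groups. Ttn, the giant spring protein of sarcomeres, was at 0.45, 67.6 and 741 CPM in the controls and at 66.4, 122 and 6.84 CPM in CC4:4. The index of 11 skeletal muscle genes was -1.43, 4.66 and 8.31 in the controls and 5.11, 6.44 and 3.4 in CC4:4. Every one of the 11 had an estimate below 0, with a median of -0.86. The median was -1.44 without Control replicate 1 and 2.12 without Control replicate 3, and how much muscle a stump carried was not measured.

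Leaving out Control replicate 1 changed the number of calls from 0 to 306 (1.95%), of which 139 (0.885%) were higher and 167 (1.06%) lower in CC4:4. The omitted library often lay opposite to the other controls in these genes. For 188 of the 306 genes, Control replicate 1 lay beyond all CC4:4 samples on the side away from the other controls. For 79 it lay inside the CC4:4 range, and for 39 it lay on the side of the other controls. The 306 genes were chosen by the fit without this library, and none was called with it. The same positions were not counted over all genes, so these counts have no background to be read against. With all controls, 145 of the 306 had an unadjusted p under 0.05. The calls were also sensitive to the samples that remained: 14 of the 306 held when each CC4:4 sample was left out in turn as well. With Control replicate 1 out, 48, 182 and 18 genes were called when CC4:4 replicate 1, 2 or 3 was left out too. Against Control replicate 3 alone 2 genes were called, and against Control replicate 2 alone 0. A fit of the remaining 5 samples without the other groups called 13 genes, 8 of them among the 306.

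**Figure D5:**
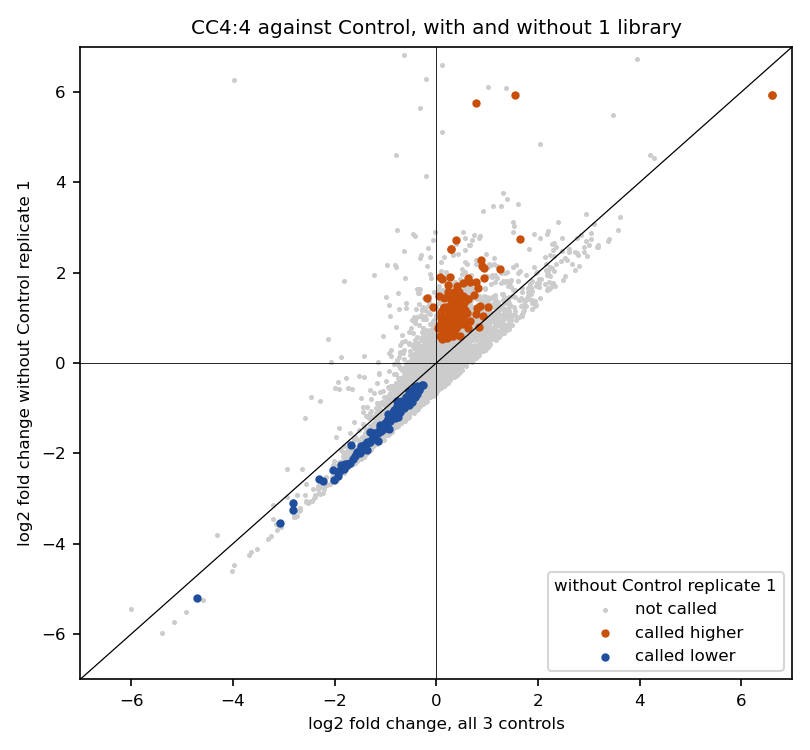
Log2 fold change, CC4:4 minus Control, of each tested gene with all 3 controls (horizontal axis) and without Control replicate 1 (vertical axis), with the line of equality and colour for the 306 genes called without it (139 higher, 167 lower). Most coloured points lie farther from 0 on the vertical axis than on the horizontal one, and 7 genes lie outside the axes, which end at 7 in each direction.

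Among the genes called higher without Control replicate 1 were matrix genes. Col1a1 had a log2 fold change of 2.10 there (adjusted p 0.043 in edgeR). Of the 16 collagen genes, 4 (Col1a1, Col1a2, Col5a2 and Col11a1) were called, and the list's median was 1.35. Ppic, cyclophilin C, a proline isomerase of the secretory pathway, was at 213, 40.1 and 40.0 CPM in the controls and at 99.9, 137 and 153 CPM in CC4:4. Its value in Control replicate 1 exceeded every CC4:4 sample, so the fold change was 0.41 with that library and 1.70 without it. Wwtr1 (0.82, adjusted p 0.033) and Yap1 (0.59, adjusted p 0.041) were called as well. A list of 31 genes of collagen folding and secretion, drawn up after these values were seen, held 12 of the calls, all higher. It gives no independent support, since its members were picked with the calls in view.

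The genes of smallest p among those called lower included Leng8, Vamp1, Zfp142 and Ubp1. Leng8 was at 43.2, 307 and 225 CPM in the controls and at 68.2, 62.5 and 59.5 CPM in CC4:4, a log2 fold change of -2.07 without Control replicate 1 (adjusted p 0.016 in edgeR). In that library Leng8 was lower than in any CC4:4 sample. Vamp1, a synaptobrevin of vesicle fusion, was at 5.06, 26.5 and 26.5 CPM against 7.16, 7.72 and 5.33 CPM, and Zfp142, a zinc finger protein, at 20.4, 57.5 and 61.8 CPM against 26.5, 25.3 and 21.3 CPM. Ubp1, a transcription factor, is a case where Control replicate 1 stayed on the side of the other controls, at 47.8, 89.2 and 87.4 CPM against 46.8, 47.0 and 44.1 CPM, though by a narrow margin. A second list drawn up after the values were seen, of 35 splicing and nuclear speckle genes, held 10 calls, all lower.

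Of the leading genes with all controls, several were also called without Control replicate 1. Tll1, Wfdc1, Cfi and Prickle1 had adjusted p values of 0.046, 0.042, 0.033 and 0.042 in edgeR and log2 fold changes of 0.81, 1.05, 1.24 and 0.79. Ptgs2, Acvr1b, Vps9d1, Kmt5c, Tpcn2 and Fam219a had adjusted p values of 0.046, 0.035, 0.030, 0.022, 0.035 and 0.036. In all 10 the omitted library lay on the controls' side of every CC4:4 sample, as the choice of leading genes required. For all of them except Tll1 and Ptgs2, however, it lay nearer to CC4:4 than the other controls did. These calls were lost in a fit of the 5 samples alone, where 0 of the 10 were called and adjusted p ran from 0.055 to 0.11 in edgeR. Among fits that kept the other groups, limma-voom called 7 of the 10 and DESeq2 called 10. C3 was called lower at -1.75 (adjusted p 0.042), but its level in Control replicate 1 lay below every CC4:4 sample. Of the 14 adipocyte genes and the 22 cytokine and chemokine genes, 0 were called in this fit.

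Set against the other unloaded conduit, the CC4:4 stumps differed in many genes. The same test called 6157 of 15712 genes (39.2%) between CC4:4 and CC4:2, of which 3251 (20.7%) were higher and 2906 (18.5%) lower in CC4:4. All 18 myelin genes and 13 of 14 Schwann cell genes were lower in CC4:4, with medians of -3.0 and -2.66. Of 22 cytokine and chemokine genes, 19 were higher, as were all 14 B and plasma cell genes and 20 of 21 cell cycle genes. The adipocyte and the cholesterol and fatty acid lists, above all controls in CC4:4, had medians of -1.41 and -1.2 against CC4:2. Of their members, 6 of 14 and 18 of 20 were called lower in CC4:4. The adipocyte index was 5.88, 7.52 and 7.26 in CC4:2, with overlap. Tll1, Wfdc1 and Prickle1 were also called lower, at -0.79, -1.04 and -0.78, while Cfi was called higher, at 2.91. The 2 comparisons share the CC4:4 samples, so their results are not independent. For Crim1 and Wwtr1 the mean in CC4:4 lay between those in Control and CC4:2. In Control, CC4:4 and CC4:2 it was 30.6, 50.6 and 84.9 CPM for Crim1 and 74.6, 99.6 and 197 CPM for Wwtr1. Against Control their log2 fold changes were 0.73 and 0.42, where neither passed the test. Against CC4:2 they were -0.75 and -0.99 (adjusted p 0.015 and 0.0089 in edgeR). Both genes were picked with their values known, and for Wwtr1 Control replicate 1 exceeded every CC4:4 sample. The mean of Yap1 rose in the same order, while that of Ankrd1 was highest in Control. The means of Ccn1 and Ccn2 fell from Control to CC4:4 to CC4:2. They were 107, 91.7 and 84.4 CPM for Ccn1 and 187, 177 and 153 CPM for Ccn2, with the highest value of each in Control replicate 1. The level of Ptgs2 in CC4:4 was higher than in CC4:2 by 1.07 on the log2 scale (adjusted p 0.035), where the estimate against Control was -1.68, called by DESeq2 and not by edgeR.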

How the data were processed

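Per the labels' protocols, TRIzol-extracted RNA was selected for poly(A) tails, turned into stranded libraries and sequenced as 150-base pairs, replicates 1 and 2 of each group on a NovaSeq X Plus and replicate 3 on a DNBSEQ-T7. The authors deposited expected counts per gene, without any normalization. HISAT2, StringTie, RSEM and DESeq2 are named in the submitters' processing notes, while versions, roles, genome build and annotation are not given in the sources used here. Of 12 identical files 1 was read.

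Expected counts were rounded to whole numbers. After filterByExpr and TMM scaling, edgeR 4.0.16 (R 4.3.3) fitted all 12 samples together, with 1 term for each group (8 residual degrees of freedom), and applied its quasi-likelihood test. A call needs a Benjamini-Hochberg adjusted p under 0.05 over all 15712 genes. The standard error (SE) equals the log2 fold change over the root of the F statistic, and 95% intervals follow from it. Values per sample are TMM-scaled CPM, and list indices use log2 CPM with a prior count of 2. Near-identical gene copies can share reads. The test was checked on simulated data in which all libraries of a group shared the same mean for each gene. No simulated library was made to stand apart as Control replicate 1 did, so the check does not cover that feature. Replicates differed beyond sampling noise, with a chi-square of 47.3 to 318.2 per degree of freedom.

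The comparison, its 41 gene lists (616 genes, 18 without a unique symbol and 24 below the filter) and the rules were chosen with earlier results of these data known. Named genes were the 10 of smallest p per direction without overlap and with a mean of at least 1 CPM, up to 3 of each list, the 8 of smallest p per direction called without Control replicate 1, the 10 of smallest p whatever their symbol, and Yap1, Wwtr1, Ccn1, Ccn2, Ankrd1 and Ptgs2. The text prints some of them, chosen with their values known, and some results are not reported here. Members named for lying outside the controls or being called, and 2 added lists, were also picked after their values were seen. Symbols came from the deposited table, and 0 Ensembl identifiers matched the RefSeq table.

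Alternatives were other scalings, filters, tools (DESeq2 1.42.0, limma 3.58.1) and samples, a replicate block, a platform term and leaving out each replicate. Fits that leave out Control replicate 1 together with another sample or tool were added after the data were seen.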

Additional observations from a re-analysis of the deposited data

Results flagged for a closer look

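For 5 gene lists, the difference between CC4:4 and Control had opposite signs on the 2 sequencing platforms. In each, all 4 differences between a CC4:4 and a Control sample read on NovaSeq X Plus had one sign and the difference on DNBSEQ-T7 the other, in the mean log2 CPM of the list. The difference between the platforms was not tested, and on DNBSEQ-T7 it is 1 sample against 1. Replicate number and platform cannot be told apart from the stump itself.

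The skeletal muscle index was higher in CC4:4 by 4.16 on NovaSeq X Plus (mean of the 4 differences, which ran from 0.45 to 7.87) and differed by -4.91 on DNBSEQ-T7. The interferon-stimulated index differed by 0.95 (0.38 to 1.53) against -1.59. The cell cycle index differed by 0.6 (0.12 to 1.09) against -0.18, and the heat shock index by 0.24 (0.13 to 0.36) against -0.23. The index of NRF2, haem and iron genes went the other way, at -0.32 (-0.37 to -0.27) on NovaSeq X Plus and 0.21 on DNBSEQ-T7.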

How the results depend on the processing

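Between CC4:4 and Control, edgeR called 0 genes with either other scaling, with immunoglobulin genes left out of the scaling, with either other filter, with robust empirical Bayes, with the 6 samples alone, with a platform term and with the NovaSeq X Plus samples alone, as did limma-voom with and without sample weights. DESeq2 called 10. In limma-voom with sample weights, 3608 genes had an unadjusted p under 0.05, against 831 in the main fit. Control replicate 1 carried the lowest weight of the 12 samples there, 0.178. Leaving out 1 replicate gave 0 to 306 calls. The highest came without Control replicate 1, without Control replicate 3 it was 1, and without each of the other 4 it was 0. Leaving out a further sample gave 0 to 182. Without Control replicate 1, limma-voom called 331 genes (259 of the 306), DESeq2 1354 (306 of them) and the 5 samples alone 13. The cause of these differences was not tested. Whether the replicate numbers pair the stumps is not stated. Deviations from the group means correlated at -0.141, -0.056 and -0.402 between same-numbered samples and from -0.267 to 0.404 between other-numbered ones. With so few samples these values cannot decide the question. With the replicate block 0 genes were called both over 12 samples and over 6, and 681 and 268 had an unadjusted p under 0.05, against 831 without it. For CC4:4 against CC4:2 the block gave 5706 and 4284 calls. That comparison gave 3590 calls of at least 2-fold and 3233 with the NovaSeq X Plus samples alone, where fewer samples were tested, and 4232 to 5393 with 1 replicate left out.

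Of 70 named genes, 5 had the opposite sign under at least 1 alternative. For Ccn1 the log2 fold change was 0.19 with sample weights and, without Control replicate 1, 0.36 in edgeR over all groups and over the 5 samples alone, 0.38 in limma-voom and 0.35 in DESeq2. For Ccn2 it was 0.16 in limma-voom, 0.57 with sample weights and 0.08 and 0.15 with the replicate block over 12 and 6 samples. Without Control replicate 1, Ccn2 was at 0.68 in edgeR, 0.69 over the 5 samples alone and in limma-voom, and 0.67 in DESeq2. Ankrd1 was at 0.66 with NovaSeq X Plus alone and 0.38 without Control replicate 3. Ttn was at 0.69 in limma-voom, 0.77 with the replicate block over 6 samples, 1.49 with NovaSeq X Plus alone and 0.96 without Control replicate 3. Ppic was at -0.05 with NovaSeq X Plus alone. With 1 replicate left out, Ccn1 ran from -0.5 to 0.36, Ccn2 from -0.34 to 0.68, Ankrd1 from -2.51 to 0.38 and Ttn from -2.87 to 0.96. The cause was not tested in any of these. Without Control replicate 1 the medians of 6 of the 41 lists lay on the other side of 0.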

Other observations

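Gpr15lg, the ligand of the receptor GPR15, had 268, 3 and 1 counts in Control replicates 1 to 3 and 142, 163 and 109 in the CC4:4 replicates. In CC4:2 it had 2, 1 and 1 counts and in VP4:2 28, 8 and 10, so Gpr15lg was high in 4 libraries, those of CC4:4 and Control replicate 1. The gene was picked after its values were seen.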
